A study of Schmidtea mediterranea with 8 samples.

Results

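Markers of tissues outside the nervous system were followed through RNA-seq libraries of planarian head fragments and dissected cephalic ganglia. The 5 markers are the contigs that the study's table of published expression patterns pairs with *mag-1*, *collagen*, *mhc6*, *ca* and *mat*, out of 38634 contigs in the deposited tables. Each has only 1 contig with its component number in the assembly. The pattern written for *mag-1* (dd_Smed_v4_769_0_1) is the body edge, for *collagen* (dd_Smed_v4_702_0_1) the muscle layer, for *mhc6* (dd_Smed_v4_249_0_1) the pharynx, for *ca* (dd_Smed_v4_4841_0_1) the nephridia and for *mat* (dd_Smed_v4_907_0_1) the gut.

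The study asked which transcripts of the cephalic ganglia (CNS) depend on Hedgehog (Hh) signaling in *Schmidtea mediterranea*. Control head fragments came from asexual CIW4 animals fed 6 times with dsRNA against *C. elegans unc-22*, a gene that planarians lack, and 1.0 µg of RNA went into each library. The 3 CNS groups came from large sexual S2F1L3F2 animals given 12 feedings at 4-day intervals with the same control dsRNA, with *hh* dsRNA or with *ptc* dsRNA, and 0.2 µg of RNA went into each library. These animals were killed in acid, the skin above the ganglia was peeled off, and the gut lying over the nervous system was taken away before the ganglia were collected. Each of the 4 groups has 2 libraries, which differ in index, and whether they hold separate animals is not given in the sources used here. The p-values therefore measure the spread between these libraries, which may be technical. Strain, feedings, RNA input and dissection all differ between head and CNS libraries, so their parts in that comparison cannot be told apart.

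Planarian tissues are intermingled around the nervous system. Muscle lies under the epidermis of the whole body and produces much of its collagen, the gut sends branches through the head, and protonephridia, the excretory tubules, run through the parenchyma. The pharynx is the muscular feeding tube, and adhesive gland cells open along the body margin. In the Hh pathway, the receptor Ptc holds the pathway off until the ligand Hh binds it, so *hh(RNAi)* lowers signaling and *ptc(RNAi)* raises it.

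Reads of each library were solved from the deposited group means, as described with the processing, and carry no replicate number. The libraries of a group are called a and b. Their depth ran from 11479783 to 18928135 reads on contigs, with a median of 12327233. Normalized reads are reads divided by a size factor. The factors were set within each deposited table, so that a control CNS library has slightly different values in different comparisons. Of the 7 markers with CNS in their written pattern, 6 were called higher in control CNS than in head fragments, as were 32.7% of the 13494 contigs tested, with a median log2 fold change of 2.66 against 0.32 for all of them. Scaled over all 8 libraries, the targeted *hh* read 39.3 and 85.1 normalized reads in *hh(RNAi)* against 256 and 223 in control CNS. On the same scale *ptc* read 198 and 201 in *ptc(RNAi)*, 159 and 117 in *hh(RNAi)*, and 303 and 310 in control CNS.

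**Figure D1:**
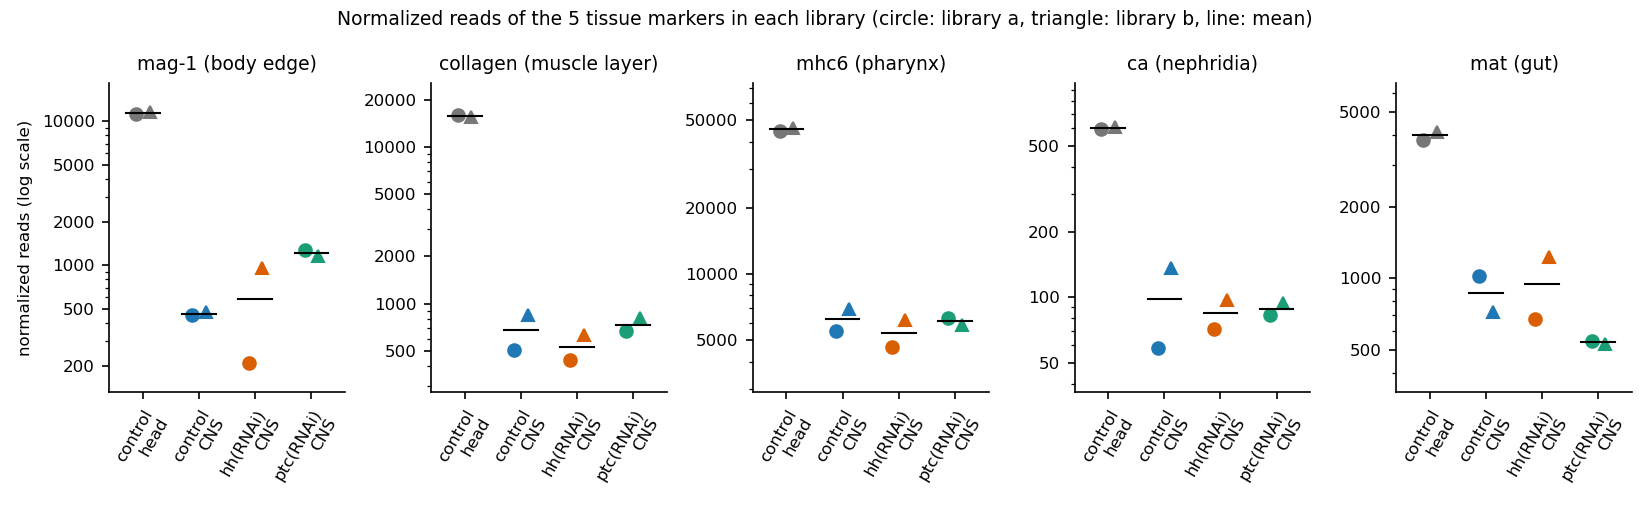
Normalized reads (log scale, 1 set of size factors over all 8 libraries) of the 5 markers in each library, with library a as a circle, library b as a triangle and the group mean as a line. The head libraries lie above all 6 CNS libraries for every marker, for *mhc6* with the most even division of its head mean. The libraries of *hh(RNAi)* lie far apart for *mag-1*, at 210 and 955.

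All 5 markers were lower in control CNS than in control head fragments. The levels of *mag-1* and *collagen* in the CNS were 4.48% and 4.75% of those in the head, whereas *mhc6*, *ca* and *mat* remained at 15.1%, 17.9% and 24.1%. Of the 13494 contigs tested, 22.2% were called lower, meaning an adjusted p under 0.05 by limma with Benjamini-Hochberg adjustment and a change of more than 2-fold. Both CNS libraries were below both head libraries for all 5, as for 38.8% of the tested contigs. For *mhc6* this rests on how its head mean was divided between the libraries. The table from which the markers come also lists their CNS enrichment in these libraries. The study's text names these 5, with *smedwi-1* and *agat-1*, as much reduced in the CNS samples. The count of 5 of 5, the p-values of the single markers and their contrast with other markers of the table therefore follow from the choice. They are not independent evidence of a fall.

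The body edge marker *mag-1* (marginal adhesive gland-1) had 11559.7 and 11921 normalized reads in the head libraries, against 513 and 538 in those of control CNS. The libraries of each tissue lay close together, and those of the tissues were far apart. *mag-1* fell by 4.48 ± 0.065 (SE) on the log2 scale (limma, adjusted p = 1.16e-05). Its 95% confidence interval, from -4.65 to -4.31, was the narrowest of the 5.

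*collagen*, an extracellular matrix protein gene, had 16449.7 and 16021 normalized reads in the head and 578 and 963 in the CNS. Both CNS libraries were far below both head libraries, although library b had 1.67-fold more than library a. Its log2 fold change was -4.44 ± 0.25 (SE; limma, adjusted p = 9.72e-05). The difference between *mag-1* and *collagen* in this change was 0.04 on the log2 scale, and its sign differed between the CNS libraries, at -0.29 in library a and 0.37 in library b.

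*mhc6*, which encodes a myosin heavy chain, the motor protein of muscle filaments, had 46267 and 47725 normalized reads in the head and 6257 and 7901 in the CNS. Although pharynx is the tissue written for it, it had between 4978 and 6401 reads in every CNS library. On the log2 scale the fold change was -2.74 ± 0.13 (SE; limma, adjusted p = 7.13e-05). Its head mean could be divided between the libraries in 6 ways, of which the most even is given, and with the second most even the log2 fold change was -2.60 (limma, adjusted p = 0.00372). The other divisions were not run. Under the least even, the head libraries would have 1846 and 92147 normalized reads, the first below both control CNS libraries. Statements on the single head libraries of *mhc6*, and its SE and p-value, therefore rest on the most even division.

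*ca*, which encodes a carbonic anhydrase, an enzyme that interconverts carbon dioxide and bicarbonate, had 615 and 628.4 normalized reads in the head and 66.5 and 156 in the CNS. The groups did not overlap, but scaled over all 8 libraries the CNS libraries were 2.32-fold apart. This distance was reached by 1.002% of the contigs at the expression minimum in control CNS. *ca* itself, with a mean of 97.8 there when scaled over all 8 libraries, was below that minimum. The share is therefore not one for contigs of its level. The reads behind these CNS values were 56 (95% exact Poisson interval 42.3 to 72.7) and 126 (105 to 150), so the libraries differed by more than counting error. *ca* had a log2 fold change of -2.60 ± 0.41 (SE; limma, adjusted p = 0.00270), with the widest interval of the 5, from -3.66 to -1.53.

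*mat*, the gut marker, had 3952 and 4278 normalized reads in the head and 1165 and 816 in the CNS. Here library a was the higher CNS library, whereas library b was higher for *collagen*, *mhc6* and *ca*. *mat* had a log2 fold change of -2.08 ± 0.18 (SE; limma, adjusted p = 0.000346).

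Over all tested contigs the log2 fold changes of this comparison had a median of 0.32, not 0. Relative to that median, the changes ran from -4.80 for *mag-1* to -2.40 for *mat*, and all 5 markers were still called lower. In bulk samples, fewer cells of a type and less RNA per cell cannot be told apart. Of the 10 pairs of markers, 7 did not overlap in the control CNS libraries when each was set against its head mean. How often pairs of other contigs overlap is not given here, so this count has no background to be read against. *mag-1* and *collagen* overlapped with each other but with none of the other markers, *ca* overlapped with both *mhc6* and *mat*, and *mhc6* and *mat* did not overlap.

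The fall was not shared by every marker written for the same tissues. The table holds 17 other markers without CNS in their pattern, of which 11 passed the expression minimum. Of these, 5 were called lower and 3 higher, against 22.2% and 32.7% of all tested contigs, with a median log2 fold change of -0.76 against 0.32 for all. Those higher were *netrin 2* (log2 fold change 2.50), *distal-less* (1.76) and *mboat7* (1.24), and *beta-catenin* (-1.67) was among those lower. Not all 11 mark tissue outside the CNS, since *netrin 2* is written for the neuropil, a part of it, and *beta-catenin* as global. With changes taken relative to the median of all contigs, and with edgeR and DESeq2, 6 of the 11 were called lower and 2 higher. Relative to the median, 3708 of all contigs were called lower and 3420 higher, in place of 3000 and 4418.

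Among nephridial markers, *cubulin* fell further than *ca*, by 3.52 on the log2 scale, and the transcription factor gene *pou2/3* fell by 1.70 (limma, both called). The homeobox gene *sine oculis 1/2-2* had a log2 fold change of 0.03 ± 0.13 (SE). Scaled over all 8 libraries, the summed level of the 4 nephridial markers was 3509 and 3438 normalized reads in the head and between 383 and 564 in the 6 CNS libraries. *cubulin* alone had 2575 and 2445 of the head reads, so the fall of the sum is mostly that of this gene.

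For the gut, *mat* fell, but the other markers with that pattern did not. *mboat7*, of a family of membrane-bound acyltransferases, was called higher with a log2 fold change of 1.24 ± 0.069 (SE), and *mboat2* had a log2 fold change of 0.53 ± 0.065 (SE), under the 2-fold threshold. When changes were taken relative to the median of all contigs, *mboat7* was at 0.91 and no longer past 2-fold. Of pharynx markers, *wntP-3* had 14.3 and 15.3 normalized reads in the head and between 0 and 2.18 in the CNS libraries, scaled over all 8 libraries. These were too few for the test, so that *mhc6* stood alone for that tissue.

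**Figure D2:**
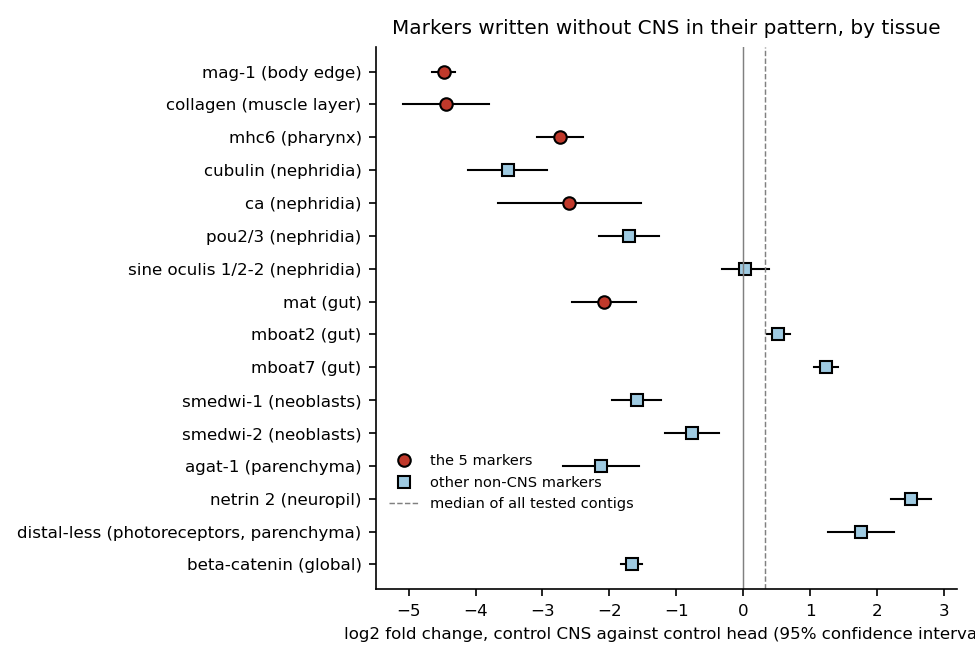
Log2 fold change of control CNS against control head, with 95% confidence intervals from limma, for the 5 markers (red circles) and the 11 other tested markers without CNS in their pattern (blue squares), ordered by written tissue. The blue squares include *netrin 2*, written for the neuropil, and *beta-catenin*, written as global. The dashed line is the median of all tested contigs, 0.32. Nephridial markers spread from -3.52 to 0.03 and gut markers from -2.08 to 1.24.

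Over all 6 CNS libraries, with 1 set of size factors for the 8 libraries, each marker was below both head libraries in every CNS library, as were 34.3% of the 12937 contigs averaging at least 100 normalized reads. For *mhc6* this again rests on the most even division of its head mean. By the median over these libraries *collagen* was the lowest, at 4.12% of the head mean with a range from 2.78% to 5.40%, although *mag-1* had the lowest value of a single library. *mhc6* was the steadiest, from 10.2% to 15.3%, a 1.496-fold range. The range was 2.35-fold for *ca* (9.72% to 22.8%) and 2.30-fold for *mat* (13.4% to 30.8%).

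*mag-1* varied most, from 1.85% to 11.2% of the head mean, a 6.05-fold range. In control CNS it was at 3.97% and 4.18%, in *hh(RNAi)* at 1.85% and 8.41%, and in *ptc(RNAi)* at 11.2% and 10.2%. The control libraries and the *ptc(RNAi)* libraries each lay close together, and the *hh(RNAi)* libraries lay on either side of the control. In the order of levels across markers, *collagen* stayed below *mhc6*, *ca* and *mat* in all 6 libraries, and *mag-1* stayed below them in each library as well.

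**Figure D3:**
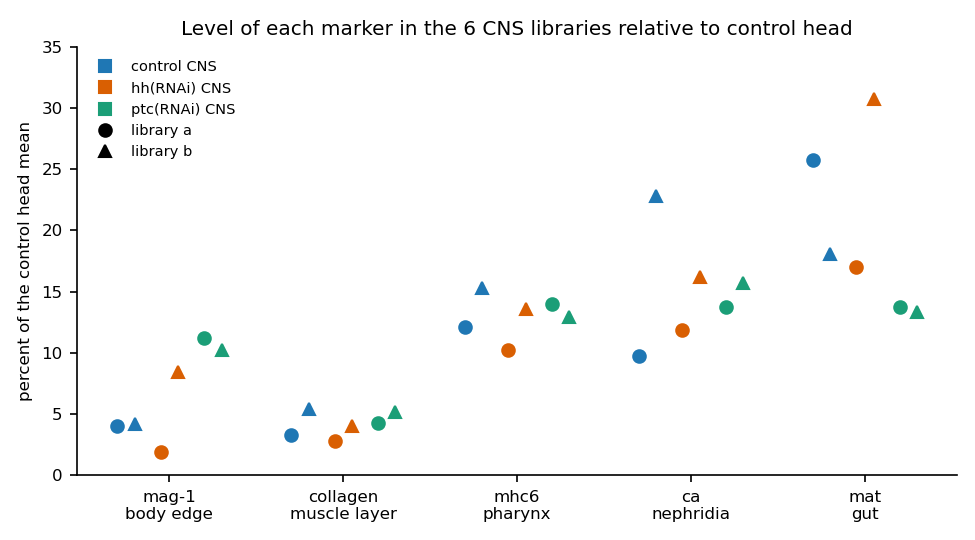
Level of each marker in the 6 CNS libraries as a percent of the mean of the control head libraries, by RNAi group (color) and library (symbol). *collagen* stays between 2.78% and 5.40%, *mag-1* spreads from 1.85% to 11.2%, and *mat* is lowest in both *ptc(RNAi)* libraries, at 13.7% and 13.4%.

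None of the markers was called between *hh(RNAi)* and control CNS. Of 12153 contigs tested, 1 was called, or 0.00823%, and 4 of the 5 markers passed the expression minimum, an average of 100 normalized reads over both groups. None of the 4 had an unadjusted p under 0.05 by limma, against 2.27% of all contigs, and neither edgeR nor DESeq2 called any. The libraries of the groups overlapped for all 5 markers. The share of all contigs that overlapped is not given here, so this count has no background to be read against.

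*mag-1* had 427 and 449 normalized reads in control CNS and 206 and 898 in *hh(RNAi)*. One *hh(RNAi)* library was below and the other above both control libraries. Scaled over all 8 libraries, where they had 210 and 955, the *hh(RNAi)* libraries were 4.52-fold apart. This distance was reached by 0.701% of the 12261 contigs at the expression minimum, for which the median was 1.21-fold. The log2 fold change was -0.02 ± 0.65 (SE), with a 95% confidence interval from -1.64 to 1.59, so that a change of 2-fold in either direction lay within it. The ratio of the group means was 1.26, above 1, whereas the log2 fold change was below 0.

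*mat* had 969 and 680.1 normalized reads in control CNS and 663 and 1150.4 in *hh(RNAi)*. The *hh(RNAi)* libraries were on either side of the control libraries here as well, and the log2 fold change was 0.11 ± 0.31 (SE), with an interval from -0.67 to 0.88.

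*collagen* had 481 and 803 normalized reads in control CNS and 428 and 589.6 in *hh(RNAi)*, with a log2 fold change of -0.31 ± 0.29 (SE) and an interval from -1.03 to 0.42. *mhc6* had 5205 and 6586 against 4558 and 5803, with a log2 fold change of -0.19 ± 0.20 (SE) and an interval from -0.69 to 0.31. For both, the lower *hh(RNAi)* library was below both control libraries and the higher was between them. *ca*, at 55.3 and 129.6 in control CNS and 69.6 and 91.7 in *hh(RNAi)*, was below the minimum and was not tested, and its *hh(RNAi)* values lay between those of the control.

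Scaled over all 8 libraries, library b of *hh(RNAi)* was higher than library a for all 5 markers, by between 1.33-fold and 4.52-fold. In control CNS the b library was the higher for 4 of the 5, and in *ptc(RNAi)* for 2 of the 5, where the libraries differed by at most 1.21-fold. The share of all contigs with library b higher is not given here, so these counts have no background to be read against. In each group, a is the library with the larger size factor within its deposited table, so the letters do not match libraries between groups. The head libraries differed by at most 1.08-fold, with the most even division for *mhc6*. The median distance over contigs was 1.05-fold between head, 1.10-fold between control CNS, 1.141-fold between *ptc(RNAi)* and 1.21-fold between *hh(RNAi)* libraries.

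In *ptc(RNAi)*, 1 of the 4 tested markers was called. *mag-1* rose 2.69-fold over control CNS, a direction in which 0.264% of the 12121 tested contigs were called. No marker was called lower, where 0.0743% of contigs were. These backgrounds of 32 and 9 contigs were 0 and 0 without an expression minimum. They also changed with each single library left out, in fits that leave 1 library in a group.

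*mag-1* had 428 and 447.3 normalized reads in control CNS and 1217 and 1141 in *ptc(RNAi)*. Both *ptc(RNAi)* libraries were above both control libraries, as for 17.2% of the tested contigs. The log2 fold change was 1.43 ± 0.11 (SE), with a 95% confidence interval from 1.16 to 1.70 (limma, adjusted p = 0.0109). It was between 1.38 and 1.47 under every alternative tried. The call was lost without an expression minimum (limma, adjusted p = 0.241) and in a limma fit over all 8 libraries (adjusted p = 0.765). It was also lost without either *ptc(RNAi)* library, in fits that leave 1 library in that group. The level reached in *ptc(RNAi)* was still 10.2% to 11.2% of that in the head.

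The neoblast markers *smedwi-1* and *smedwi-2*, PIWI genes of planarian stem cells, also had both *ptc(RNAi)* libraries above both control libraries, without passing the test (limma, adjusted p = 0.160 and 0.508). Against *hh(RNAi)*, *smedwi-1* was called higher in *ptc(RNAi)*, with a log2 fold change of 2.22 (limma, adjusted p = 0.00534), and *smedwi-2* was not called (adjusted p = 0.0745). That fit was over all 8 libraries and called 0.964% of contigs in either direction. Whether the call holds in a fit on the RNAi libraries alone, which called fewer contigs, is not given here. Scaled over all 8 libraries, their summed level was 13336 and 11683 normalized reads in *ptc(RNAi)*, 6726 and 9007 in control CNS, and 6143 and 5526 in *hh(RNAi)*. Their part in the change of *mag-1* was not tested.

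*mat* had 973 and 678 normalized reads in control CNS and 522 and 524 in *ptc(RNAi)*. Both *ptc(RNAi)* libraries were below both control libraries, as for 19.2% of contigs. The log2 fold change was -0.63 ± 0.18 (SE), with an interval from -1.07 to -0.20 (limma, unadjusted p = 0.0111, adjusted p = 0.492), and did not pass the test. The other gut markers, *mboat2* and *mboat7*, had log2 fold changes of -0.08 ± 0.11 and -0.00 ± 0.11 (SE), and their groups overlapped.

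*collagen* had 483 and 800.2 normalized reads in control CNS and 637 and 794 in *ptc(RNAi)*, with a log2 fold change of 0.19 ± 0.25 (SE) and an interval from -0.39 to 0.78. *mhc6* had 5224 and 6566 against 6066 and 5794, with a log2 fold change of 0.02 ± 0.15 (SE) and an interval from -0.33 to 0.37. Both *ptc(RNAi)* libraries lay between the control libraries for each of these genes, and a 2-fold change in either direction was outside both intervals. *ca*, at 55.5 and 129 in control CNS and 78.8 and 93.2 in *ptc(RNAi)*, was not tested.

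**Figure D4:**
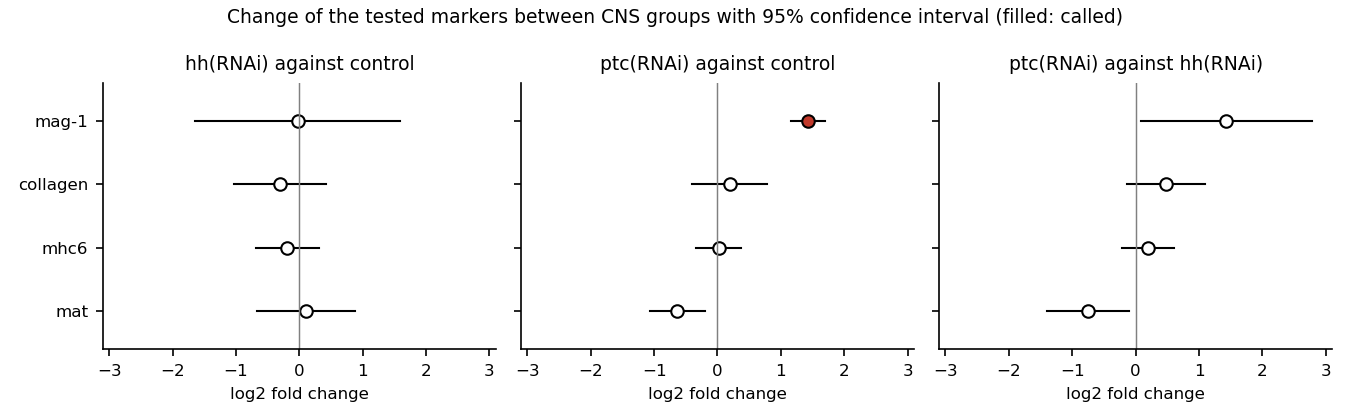
Log2 fold change of the 4 tested markers between CNS groups, with 95% confidence intervals from limma. The filled point, *mag-1* in *ptc(RNAi)* against control at 1.43, is the 1 call. The interval of *mag-1* is wide wherever the *hh(RNAi)* libraries enter, from -1.64 to 1.59 against control.

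The RNAi groups share their control libraries, so they were also set against each other in a fit over all 8 libraries, where 118 of 12237 contigs, 0.964%, were called. A fit on the 4 RNAi libraries alone called 11. None of the 4 tested markers was called by limma, edgeR or DESeq2, while 2 had an unadjusted p under 0.05, as did 10.8% of contigs. For *mag-1*, with 1274 and 1158 normalized reads in *ptc(RNAi)* and 210 and 955 in *hh(RNAi)*, both *ptc(RNAi)* libraries were the higher, as for 15.4% of contigs, and the log2 fold change was 1.43 ± 0.58 (SE; limma, adjusted p = 0.427), with an interval from 0.08 to 2.79. For *mat*, with 546 and 532 in *ptc(RNAi)* and 677 and 1224 in *hh(RNAi)*, both *ptc(RNAi)* libraries were the lower, as for 17.5% of contigs, and the log2 fold change was -0.76 ± 0.28 (SE; limma, adjusted p = 0.370).

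The size of these changes depended on which *hh(RNAi)* library was kept. Without *hh(RNAi)* library b, the log2 fold change of *mag-1* was 2.52, and without library a it was 0.35. That of *mat* was -1.18 without *hh(RNAi)* library a, and ran from -1.18 to -0.33 with each of the libraries left out. Such fits leave 1 library in a group, so the spread within that group does not enter them. *collagen* and *mhc6* had log2 fold changes of 0.49 ± 0.26 and 0.19 ± 0.17 (SE), with intervals from -0.13 to 1.10 and from -0.22 to 0.60.

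Contigs with a similar course over the 8 libraries were ranked by the root mean square difference of their log2 profiles, each centred on its own mean, among 12936 contigs of which 104 have a name in the study's tables. The head libraries, high for every marker, weigh heavily in this measure. *mhc6* and *ca* were nearest to each other among named contigs, at 0.25, with 7 contigs nearer to *ca* and 57 nearer to *mhc6*. The nearest named contig was *cubulin* for *collagen*, at 0.45, and *collagen* for *mag-1*, at 0.68. For *mat* it was *wnt2*, at 0.42, with 500 contigs nearer.

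The nearest of all contigs to *mag-1* was dd_Smed_v4_557_0_1, without a name in the tables, at 0.20. It had 1854 and 2067 normalized reads in the head, 108 and 77.3 in control CNS, 31.8 and 167 in *hh(RNAi)*, and 258 and 249.2 in *ptc(RNAi)*. Like *mag-1*, it had *hh(RNAi)* libraries on either side of the control and was highest among CNS groups in *ptc(RNAi)*. The nearest to *collagen*, dd_Smed_v4_840_0_1, at 0.081, had 17829 and 16901 in the head and between 571 and 989 in the CNS libraries, with control library b above library a as for *collagen*. Both contigs were chosen for their closeness over these same libraries, so these likenesses follow from the choice and are not independent evidence.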

How the data were processed

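The authors aligned Illumina reads to the Dresden transcriptome with Bowtie2, keeping the best single alignment after trimming 5 bases, and counted them with Samtools. Whether copies in the collagen and myosin families share reads was not tested. Methods name DESeq2, while the column names are those of DESeq's nbinomTest, and versions are not given in the sources used here. The deposited signal columns give 1 value per group and contig, its size-factor-normalized reads averaged over the libraries. The deposited fold changes and p-values were not used.

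Since 1 read of a library adds a fixed step to such a mean, the whole reads of each library could be solved from it (100% of means above 0). For the head fragments, 55 contigs, *mhc6* among them, had more than 1 solution, and the most even was used. limma 3.58.1 (R 4.3.3; trend, empirical Bayes) was run on log2(normalized reads + 1) for contigs averaging at least 100 normalized reads, with Benjamini-Hochberg adjustment over all of them. Fold changes are on that scale. The alternatives included DESeq2 1.42.0 and the quasi-likelihood test of edgeR 4.0.16 with TMM scaling. Both steps were tested on simulated data. An exact permutation test of 2 against 2 libraries cannot go below 0.333. Intervals of reads cover counting error only.

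Named genes were the 5 markers, other contigs of the marker table, and each marker's nearest profiles. The markers and lists were chosen with earlier results of these data known. Without contig lengths, levels are not compared between genes.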

Additional observations from a re-analysis of the deposited data

How the results depend on the processing

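In control CNS against head, all 5 markers were called lower under every alternative run, except that *ca* was not tested at a minimum of 500 normalized reads (4 of 4 called). No marker was called in *hh(RNAi)* under any. With changes relative to the median of all contigs, 3420 contigs were called higher and 3708 lower in control CNS, against 4418 and 3000. DESeq2 called 37 contigs lower in *hh(RNAi)* (limma 1), and 88 higher and 38 lower in *ptc(RNAi)* (limma 32 and 9). The fit over all 8 libraries called 17 and 2 there. In *ptc(RNAi)* against *hh(RNAi)*, limma called 110 higher and 8 lower, and 11 and 0 on the 4 RNAi libraries alone. These counts also changed with single libraries left out, in fits that leave 1 library in a group. In *ptc(RNAi)* the count of called markers was 0, not 1, without an expression minimum and in the fit over all 8 libraries. With each library left out, the count of called markers also varied, both here and for *ptc(RNAi)* against *hh(RNAi)*, in fits that leave 1 library in a group. The cause was not tested.

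Signs turned where changes were small. In *hh(RNAi)*, the log2 fold change of *mag-1* was 0.044 with total-read scaling and 0.34 with edgeR and with DESeq2, and with single libraries left out lay between -1.08 and 1.04 (0.012 without control library b). *collagen* ran from -0.68 to 0.062 and *mat* from -0.29 to 0.50 (-0.15 without control library b). In *ptc(RNAi)*, *mhc6* was at -0.0098 with total-read scaling, -0.019 over all 8 libraries and -0.15 to 0.18 with libraries left out (-0.015 without *ptc(RNAi)* library a), and *collagen* ran from -0.17 to 0.56. Against *hh(RNAi)*, *mhc6* ran from -0.015 to 0.39.

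No paired analysis was possible because the solved libraries carry no replicate number. Summing contigs by component number gives the same values, since each marker has 1 contig. The solution for *mhc6* was varied after seeing the data.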

Other observations

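*SCO-spondin-like*, a contig of the study's tables named by similarity to a mouse gene and chosen here after its values were seen, was nearly as near to *mag-1* in profile as *collagen*, at 0.68. It had 31862 and 32353 normalized reads in the head, 1339 and 1294 in control CNS, 982 and 1298 in *hh(RNAi)*, and 8087 and 7013 in *ptc(RNAi)*. Both genes were far higher in head than in CNS libraries and higher in both *ptc(RNAi)* libraries than in the other CNS libraries, but the *hh(RNAi)* libraries of *SCO-spondin-like* lay close together. As the contig was found by its closeness to *mag-1* over these same libraries, the shared course is not independent evidence. The study's tables also include a list of genes selected for a change after *hh* or *ptc* RNAi.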
